A study of Mus musculus with 179 samples.

Results

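The 9 genes Mbp, Mobp, Mog, Mag, Mal, Cnp, Opalin, Cldn11 and Gjb1 code for proteins of the myelin sheath. They were listed by name, with earlier results of these data known. In all, 42887 genes have values in at least 1 of the 3 deposited expression tables. Each matched 1 Ensembl gene identifier through the gene names of the male ventral tegmental area (VTA) table. All 9 were among the genes tested in every region except the male nucleus accumbens (NAc), where 8 were, since Cldn11 is not in the table used here. The study asked how stress in early life changes the adult brain's response to a later stress, and poly-A RNA of 163 brain punches was sequenced.

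All mice were C57BL/6 (written C57Bl6/j outside the male VTA), and tissue was taken 24 h after behavioural testing in adulthood. Early life stress (ELS) fell on postnatal days 10 to 20 in the prefrontal cortex (PFC), hippocampus (HIP) and female groups, and on days 10 to 20 or 2 to 12 in male NAc groups. For the male VTA the labels used here give no days. The adult stress was chronic social defeat in males and sub-threshold variable stress (STVS) in females, and males and females came from separate cohorts, so sex, adult stress and cohort cannot be told apart. Male PFC and male HIP had 6 libraries each of ELS defeat, ELS control, Standard defeat and Standard control mice. Female PFC, VTA and NAc had 6 ELS STVS, 5 ELS control, 5 Standard STVS and 6 Standard control libraries each. Male VTA had 6 ELS defeat, 4 ELS control, 6 Standard defeat and 4 Standard control libraries. Male NAc had 6 defeat and 4 control libraries after ELS on days 10 to 20, 5 defeat and 4 control libraries after ELS on days 2 to 12, 6 Standard defeat and 4 Standard control libraries. Each male VTA and male NAc library pooled 3 mice, and each other library was 1 mouse. Beyond that, libraries are separate samples by their labels, and p-values measure the spread between them.

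Myelin is the stack of oligodendrocyte membrane that wraps axons and speeds conduction. Its compact part is held together by basic proteins at the inner membrane faces and by tetraspan proteins at the outer ones, while adhesion proteins sit next to the axon or on the outermost surface, and gap junctions join neighbouring loops and cells. Mature oligodendrocytes switch on this set of genes together under the transcription factors Sox10 and Myrf. In bulk tissue, fewer oligodendrocytes and less myelin RNA per oligodendrocyte cannot be told apart.

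The upstream sequences of 4 of the genes are shown because the 9 transcripts moved together from library to library, as described further on, and because Gjb1 had the largest and Opalin the smallest VTA differences. Each is the 250 bases before a RefSeq transcript start of build GRCm38.p6, read 5′ to 3′ on the gene's strand. Matches on either strand to ACAAAG (the core of Sox family sites) or to CTGGNAC (letters taken here for Myrf sites) are in capitals. N stands for any base, a loose form, so a Myrf match here means a match to these letters only. Mobp lies at chr9:120149492-120149741 on the plus strand, Cnp at chr11:100574689-100574938 on the plus strand, Opalin at chr19:41077114-41077363 on the minus strand and 1 of the 4 Gjb1 starts at chrX:101383482-101383731 on the plus strand.
Mobp: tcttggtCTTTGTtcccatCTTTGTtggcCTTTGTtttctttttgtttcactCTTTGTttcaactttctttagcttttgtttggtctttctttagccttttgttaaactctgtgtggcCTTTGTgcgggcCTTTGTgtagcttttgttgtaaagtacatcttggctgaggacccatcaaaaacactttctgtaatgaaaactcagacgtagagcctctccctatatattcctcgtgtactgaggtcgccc
Cnp: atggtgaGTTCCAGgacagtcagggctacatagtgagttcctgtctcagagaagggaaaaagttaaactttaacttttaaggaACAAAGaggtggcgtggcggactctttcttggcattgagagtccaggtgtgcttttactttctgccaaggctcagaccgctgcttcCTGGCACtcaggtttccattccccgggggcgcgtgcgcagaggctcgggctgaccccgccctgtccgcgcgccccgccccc
Opalin: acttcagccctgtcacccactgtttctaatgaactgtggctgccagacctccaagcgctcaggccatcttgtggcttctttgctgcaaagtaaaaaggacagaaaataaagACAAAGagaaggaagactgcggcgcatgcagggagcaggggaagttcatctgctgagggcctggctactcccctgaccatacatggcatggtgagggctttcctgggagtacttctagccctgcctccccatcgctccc
Gjb1: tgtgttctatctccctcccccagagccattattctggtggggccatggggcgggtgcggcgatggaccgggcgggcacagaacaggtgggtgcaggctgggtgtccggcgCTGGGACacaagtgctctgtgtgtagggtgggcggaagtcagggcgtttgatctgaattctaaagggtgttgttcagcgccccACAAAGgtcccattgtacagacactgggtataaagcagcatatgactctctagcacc

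Mobp held 6 Sox matches in these 250 bases, all on the opposite strand, a number reached by 1 of 32851 RefSeq promoters of this length. Cnp held 1 Sox match and 2 Myrf matches, Opalin held 1 Sox match and no Myrf match, and the printed Gjb1 start held 1 of each. It was the only Gjb1 start with both: of the others, 1 held a Sox match, 1 a Myrf match and 1 neither. Of the 8 genes with an entry (none was used for Mbp), 5 held a Sox match in at least 1 start and 4 held a Myrf match, and 3 held both in 1 start. Over all 32851 promoters, 16.5% held the Sox letters, 16.1% the Myrf letters and 2.57% both. Genes with several starts had more chances of a match (13 starts for the 8 genes), and no Sox match overlapped a Myrf match. These are matches of letters, not sites shown to be bound.

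Some libraries stood apart before any comparison. Depth, as whole reads recovered from the deposited values, ran from 13601728 to 42746141 reads, and is unknown for the male VTA. Markers went with the labelled regions: summed dopamine neuron markers had a median of 107279 normalised reads in female VTA against 997 in female PFC, and summed striatal neuron markers one of 163611 in female NAc against 7371 in female PFC. In male PFC, 1 of 24 libraries (Standard defeat 4) held 12512 normalised reads of dopamine neuron markers, against 714 to 1500 in the other 23. The libraries Standard control 4 and ELS defeat 5 held 19728 and 16090 normalised reads of striatal neuron markers, against 6847 to 10127 in the other 22 male PFC libraries. In female NAc 1 library (ELS STVS 1) and in male HIP 6 of 24 libraries held over 10000 normalised reads of Ttr, the transthyretin transcript of choroid plexus. Sex-linked transcripts went against the label in 3 male PFC libraries (Standard control 1 and 4, Standard defeat 4), flagged for Xist. They also did in female VTA Standard control 3, flagged for the Y-linked Ddx3y. The Standard STVS 3 library of each female region was flagged only for Xist that was low for its region, and not for Ddx3y. The Ttr-rich libraries, those that went against the sex label and those with low Xist are called the doubted libraries. Values without them are given where they move a result. In male NAc, ELS defeat 4 of days 10 to 20 held 41743 normalised reads of choroid plexus markers, against at most 5301 in the ELS control group of those days. That library and ELS defeat 5 of male PFC are not among the doubted libraries, and values without each are given by leaving it out alone.

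The male VTA table is the only one in RPKM, reads per kilobase of gene scaled to library size, so levels of different genes are compared there alone. Mbp, the basic protein that compacts the inner faces of the membrane, was the highest, with 612, 902 and 1155 RPKM as the lowest, median and highest of the 20 libraries (chr18:82475091-82585637). Its reads also include the Golli transcripts, which come from the same gene. Mobp, a small basic protein of compact myelin, came next with 312, 470 and 576 RPKM (chr9:120149742-120181488). Cnp, the cyclic nucleotide phosphodiesterase that keeps cytoplasmic channels open in the sheath, had 180, 237 and 273 RPKM (chr11:100574909-100591875). Mag, the adhesion protein that faces the axon, had 157, 224 and 267 RPKM (chr7:30899175-30914922). Mal, a tetraspan protein of lipid sorting, had 144, 205 and 241 RPKM (chr2:127633226-127656695).

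Cldn11, the claudin of the tight junctions between myelin turns, had 118, 168 and 205 RPKM (chr3:31149920-31164326). Mog, the immunoglobulin-like protein of the outermost lamella, had 84.4, 118 and 141 RPKM (chr17:37010740-37023398). Gjb1, the gap junction protein connexin 32, had 23.4, 35.3 and 43.9 RPKM (chrX:101376376-101385629), and Opalin, a membrane glycoprotein of late oligodendrocytes, had 18.9, 26.3 and 33.0 RPKM (chr19:41061959-41077113). Coordinates are gene spans in RefSeq, build GRCm38.p6. In Standard control libraries Mbp, Mobp and the group of the next 4 genes did not overlap. Within that group, in the order Cnp, Mal, Mag and Cldn11, each gene overlapped the one after it. Mog overlapped neither Cldn11 above it nor Gjb1 below it, and Gjb1 overlapped Opalin. The proportions were steady: Mobp stood at 50.9% of Mbp in the median male VTA library (range 48.8% to 55.5%) and Opalin at 2.81% (range 2.44% to 3.77%).

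All 9 genes were highest in VTA, lower in NAc and lowest in PFC. In female Standard controls, Mbp had 193602, 211214 and 280541 normalised reads (lowest, median and highest of 6) in VTA, against 55668, 64338 and 79576 in NAc and 16531, 18196 and 22028 in PFC. Normalised reads are gene counts divided by 1 factor per library, so they compare libraries for 1 gene and not genes with each other. No VTA library overlapped a NAc library, and no NAc library overlapped a PFC library, for any of the 9 genes. The share of all genes without overlap was not counted, so this is no trait of the 9. Of 14000 genes, 11353 differed between VTA and NAc and 9866 between NAc and PFC, in either direction, at an adjusted p under 0.05 by limma. In VTA against PFC all 9 were higher by limma at an adjusted p under 0.05, where 40% of the 14000 genes tested were higher by the same rule. The log2 fold changes on the log2(value + 1) scale had a median of 3.57, from 2.60 ± 0.09 (SE) for Opalin to 4.38 ± 0.12 for Gjb1, that is 6.06-fold and 20.8-fold.

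**Figure D1:**
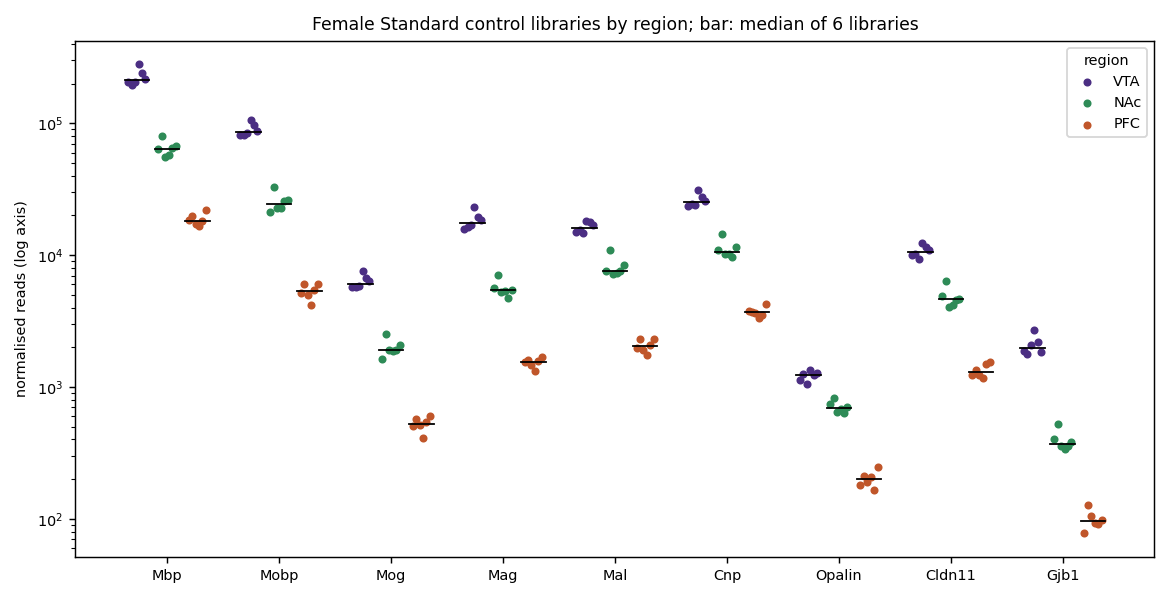
Normalised reads of the 9 genes on a log axis in the female Standard control libraries of VTA, NAc and PFC, each point 1 library and each bar the median of 6. VTA points lie above NAc points and NAc points above PFC points for all 9 genes, and the gap between VTA and NAc is narrowest for Opalin and widest for Gjb1.

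In NAc against PFC all 9 were higher too (35.7% of all genes were higher), with a median of 1.86 and a narrow range, from 1.59 ± 0.09 for Cnp to 2.25 ± 0.10 for Mobp. In VTA against NAc all 9 were higher (42.5% of all genes), with a median of 1.67 and a wide range, from 0.78 ± 0.09 for Opalin and 1.01 ± 0.09 for Mal to 2.40 ± 0.12 for Gjb1. So the step into VTA was uneven among the 9 genes. Under quantile normalisation the median of VTA against NAc was 1.35. Without the doubted VTA library the medians were 3.60 against PFC and 1.69 against NAc. Between male HIP and male PFC Standard controls none of the 9 passed this test in limma, where 46.8% of all genes did, and none had an unadjusted p under 0.05 in limma or edgeR. The median was 0.15, and without the doubted libraries it was -0.44. The male HIP Standard controls of that comparison include 3 libraries rich in Ttr.

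The uneven step is clearest in the ratio of Gjb1 to Opalin within a library, a comparison chosen after the regional fold changes had been seen. In female Standard controls log2(Gjb1 + 1) minus log2(Opalin + 1) was 0.76 ± 0.21 in VTA, against -0.85 ± 0.12 in NAc and -1.02 ± 0.24 in PFC (SD, n = 6 each). The lowest VTA library had 0.50, above the highest NAc library at -0.65 and the highest PFC library at -0.72, and the groups stayed apart with or without VTA Standard control 3. VTA minus PFC was 1.78, VTA minus NAc 1.61 and NAc minus PFC 0.17. Since the pair was chosen in these libraries for its regional difference, these values are a description with no test.

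All 22 female VTA libraries, stressed or not, lay between 0.48 and 1.04, against -1.16 to -0.55 in the 22 of NAc and -1.33 to -0.56 in the 22 of female PFC. Male PFC libraries ran from -1.30 to -0.11, and the top value was Standard defeat 4, the library with the dopamine neuron markers, which held 270 normalised reads of Gjb1 and 292 of Opalin. The next male PFC library stood at -0.45. Male NAc libraries ran from -1.26 to -0.83 and male HIP libraries from -1.14 to -0.15. In the male VTA, on the RPKM scale, the ratio ran from -0.01 to 0.79.

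**Figure D2:**
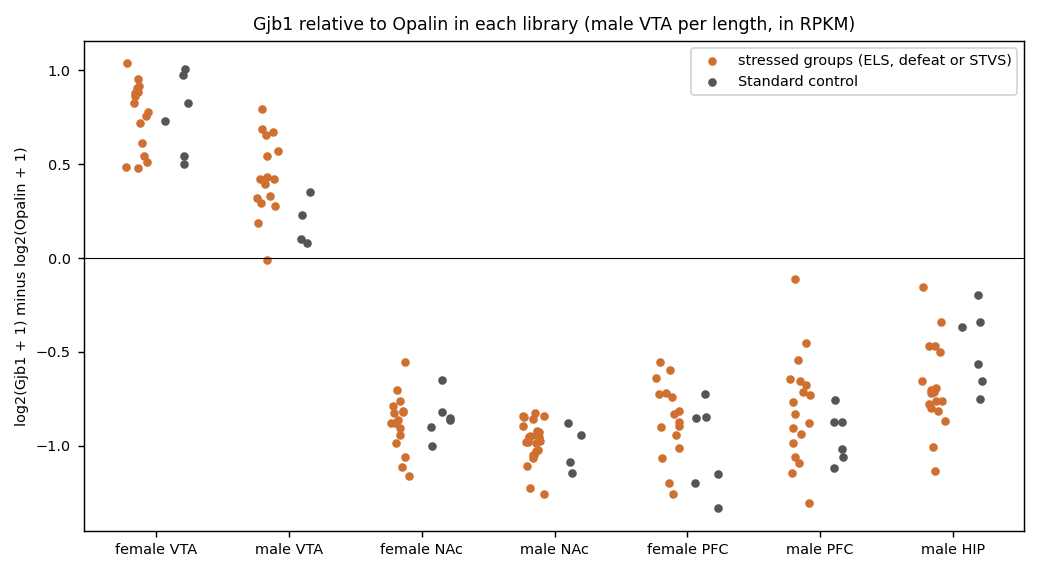
The difference log2(Gjb1 + 1) minus log2(Opalin + 1) in each of the 163 libraries by sex and region, with stressed groups left of Standard controls. Values are in normalised reads, except in the male VTA, where they are per length, and VTA libraries stand above those of the other regions in the female cohort.

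The spread between libraries of 1 group also differed by region. The mean of log2(value + 1) over the members had a within-group SD of 0.62 in male HIP, 0.51 in male PFC and 0.42 in female PFC, against 0.24 in female NAc, 0.19 in male VTA, 0.18 in female VTA and 0.14 in male NAc. Mobp spanned 7.49-fold from the lowest to the highest male PFC library and 6.50-fold in male HIP, but 1.61-fold in female VTA. The pooling of 3 mice in male VTA and male NAc goes with 2 of the 4 small values, and female VTA and female NAc libraries were single mice.

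In PFC, groups with ELS averaged below Standard control in males and above it in females for all 9 genes, and none of the 9 passed an adjusted p of 0.05 in either cohort. In males, Mbp had 10742, 19536 and 28053 normalised reads in ELS defeat libraries and 15732, 19905 and 26734 in ELS control libraries, against 16096, 26078 and 35940 in Standard defeat and 17987, 23558 and 49389 in Standard control (lowest, median and highest of 6). In females, Mbp had 17388, 25847 and 50330 in ELS STVS libraries, 17093, 21149 and 24710 in ELS control, and 17481, 19046 and 27204 in Standard STVS, against 16531, 18196 and 22028 in Standard control. The groups overlapped in both cohorts for all 9 genes, and the highest values came from a few libraries.

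**Figure D3:**
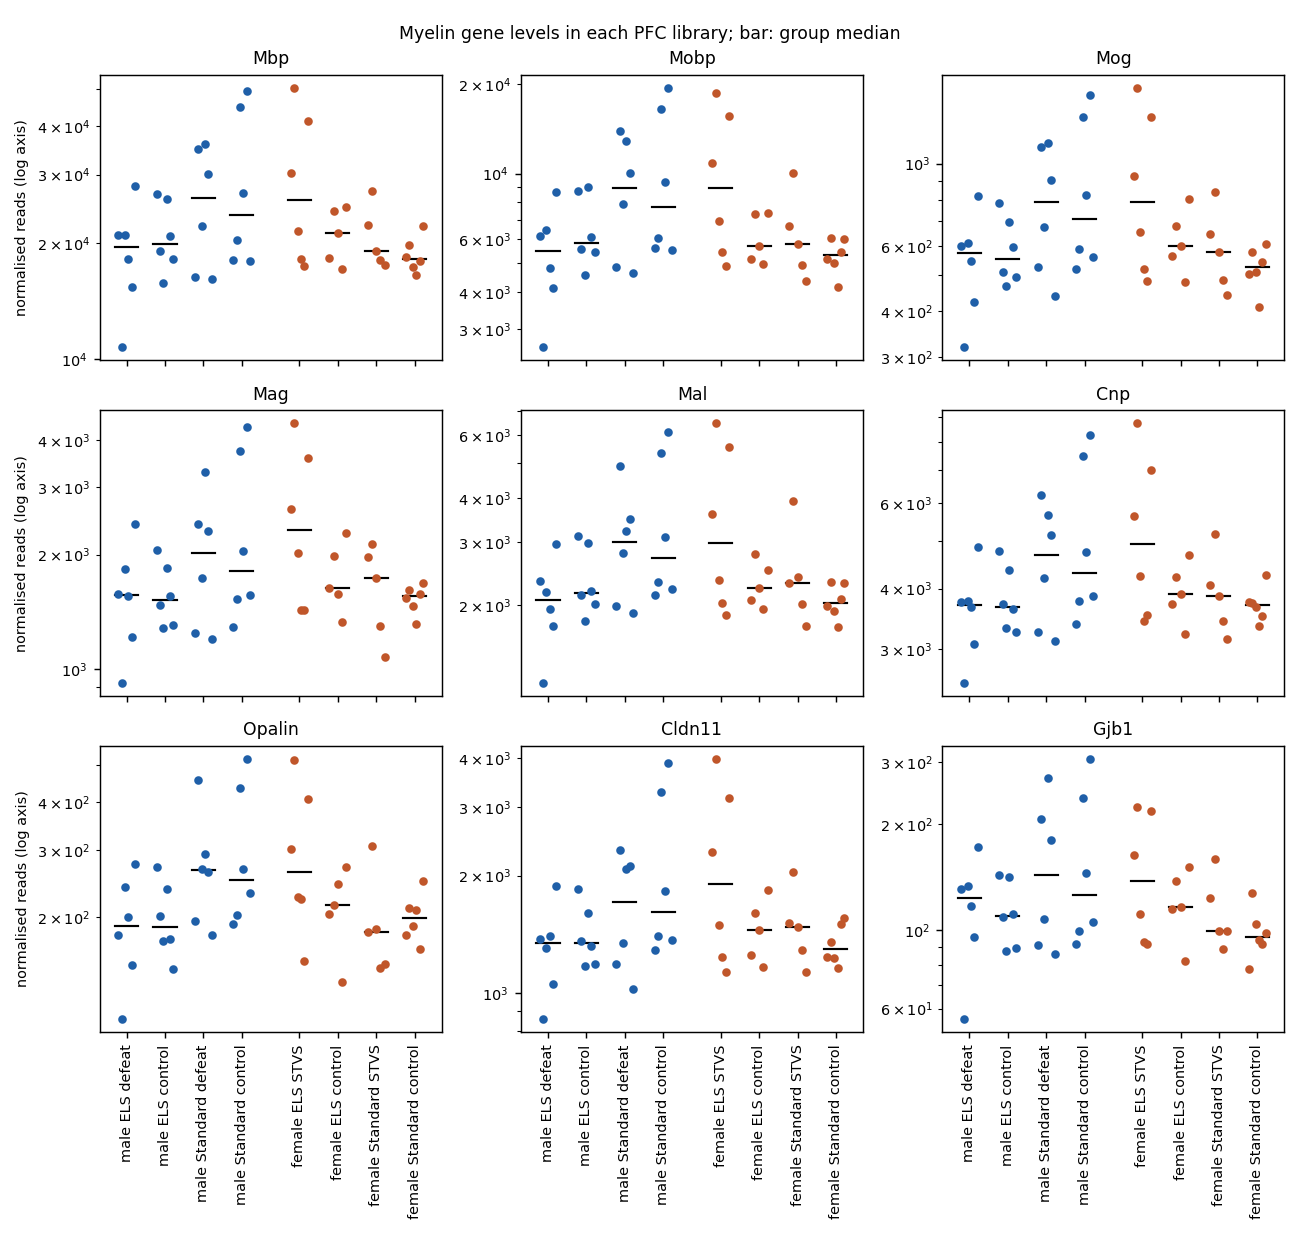
Normalised reads on a log axis for each of the 9 genes in each PFC library, with the 4 male groups in blue and the 4 female groups in orange, and the group median as a bar. In every panel 2 male Standard control libraries stand above all male ELS libraries, and 3 female ELS STVS libraries stand above all female Standard controls.

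In the male cohort, ELS control libraries averaged lower than Standard control libraries for all 9 genes, by -0.38 ± 0.22 (SE) for Cnp to -0.54 ± 0.26 for Opalin, with a median log2 fold change of -0.47. By limma none of the 9 had an unadjusted p under 0.05, a mark that 2.22% of all genes passed in either direction, and the adjusted p was 1.00 for each (0% of all genes were called). edgeR on the recovered whole reads called none of the 14000 genes either. It gave 2 of the 9 an unadjusted p under 0.05, and 327 of the 14000 in either direction. The Standard control libraries 3 and 5 were the highest of their group for all 9 genes. They held 44810 and 49389 normalised reads of Mbp, against 17987 to 26835 in the other 4 Standard controls and 15732 to 26734 in the ELS controls. The median was -0.28 without Standard control 5 and -0.32 without Standard control 3, and -0.64 without the doubted libraries. In that last fit 4 of the 9 had an unadjusted p under 0.05 by limma, as had 402 of 14000 genes in either direction, and no gene was called.

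Gjb1 varied in the same way: ELS control libraries had 87.3, 110.1 and 144 normalised reads, against 91.7, 126 and 306 in Standard control libraries. Opalin, the gene with the largest difference, had 147, 188 and 270 normalised reads in ELS control libraries, against 192, 250 and 518 in Standard control libraries. The 2 groups overlapped in both genes, with the highest values in Standard control.

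ELS defeat against Standard control, which adds the adult stress, had a median of -0.62. Here 6 of the 9 had an unadjusted p under 0.05 and were lower, where 3.92% of all genes passed the same mark, and the adjusted p ran from 0.54 to 0.74 (0 of 14000 genes called by limma or edgeR). Mobp showed the largest difference at -0.83 ± 0.36, with 2602, 5480 and 8653 normalised reads in ELS defeat and 5548, 7733 and 19474 in Standard control libraries. Mal followed at -0.69 ± 0.28. ELS defeat 2 was the lowest library of its group for all 9 genes. Without it none of the 9 kept an unadjusted p under 0.05, nor did any without Standard control 3 or 5 (medians -0.47, -0.47 and -0.43), and 1 did without ELS defeat 5, the library with striatal markers (median -0.55). Without the doubted libraries the median was -0.77, with 8 of the 9 at an unadjusted p under 0.05, as had 1223 of 14000 genes in either direction in that fit.

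Between the 2 defeated groups, ELS defeat averaged below Standard defeat, with a median of -0.43, and none of the 9 passed an unadjusted p of 0.05 (8.44% of all genes did). Without the doubted libraries, which removes Standard defeat 4, it was -0.32. Leaving out single libraries, it ran from -0.55 without ELS defeat 6 to -0.28 without ELS defeat 2, and 4 of the 9 had an unadjusted p under 0.05 without Standard defeat 6. For defeat itself the median was -0.14 for Standard defeat against Standard control (0 of 9, background 3.35%) and -0.13 for ELS defeat against ELS control (0 of 9, background 16.7%). The difference between ELS defeat and ELS control ran from -0.24 without ELS defeat 6 to -0.0083 without ELS defeat 2, and was -0.07 without ELS defeat 5. The Standard defeat difference was -0.40 with the doubted libraries left out, and 0.03 with Standard control 5 left out.

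In the female cohort all 9 averaged higher after ELS. ELS control against Standard control had a median of 0.17, from 0.07 ± 0.25 for Opalin to 0.27 ± 0.22 for Gjb1, and none of the 9 passed an unadjusted p of 0.05 (background 3.29%). ELS STVS against Standard control had a median of 0.57. By limma 8 of the 9 had an unadjusted p under 0.05 and were higher, where 2.66% of all genes passed the same mark, and the adjusted p ran from 0.86 to 0.97 (0 of 14000 genes called by limma or edgeR). Mobp again showed the largest difference, 0.80 ± 0.29, with 4881, 8915 and 18635 normalised reads in ELS STVS and 4160, 5307 and 6065 in Standard control libraries.

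The ELS STVS libraries 1, 2 and 6 were the highest 3 of their group for all 9 genes, and exceeded every Standard control library in each. They held 30250, 50330 and 41128 normalised reads of Mbp, against 17388 to 21444 in ELS STVS 3, 4 and 5, which overlapped the Standard controls at 16531 to 22028. Without ELS STVS 2 the median was 0.39 and 3 of the 9 kept an unadjusted p under 0.05. Without ELS STVS 6 it was 0.44, again with 3.

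ELS STVS against ELS control had a median of 0.43 (0 of 9 at an unadjusted p under 0.05, background 3.25%), and 0.25 without ELS STVS 2. By edgeR 6 of 9 had an unadjusted p under 0.05, as had 453 of 14000 genes in either direction. ELS STVS against Standard STVS had a median of 0.45. By limma Mag (0.57 ± 0.26) and Opalin (0.58 ± 0.25) were higher at an unadjusted p under 0.05 (2 of 9, background 4.91%). By edgeR 7 of 9 had an unadjusted p under 0.05, as had 1406 of 14000 genes in either direction. Without ELS STVS 2 the median was 0.25, and by limma none of the 9 had an unadjusted p under 0.05. Standard STVS against Standard control had a median of 0.14 (0 of 9, background 5.04%), 0.02 without Standard STVS 2 and 0.17 without the doubted Standard STVS 3.

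**Figure D4:**
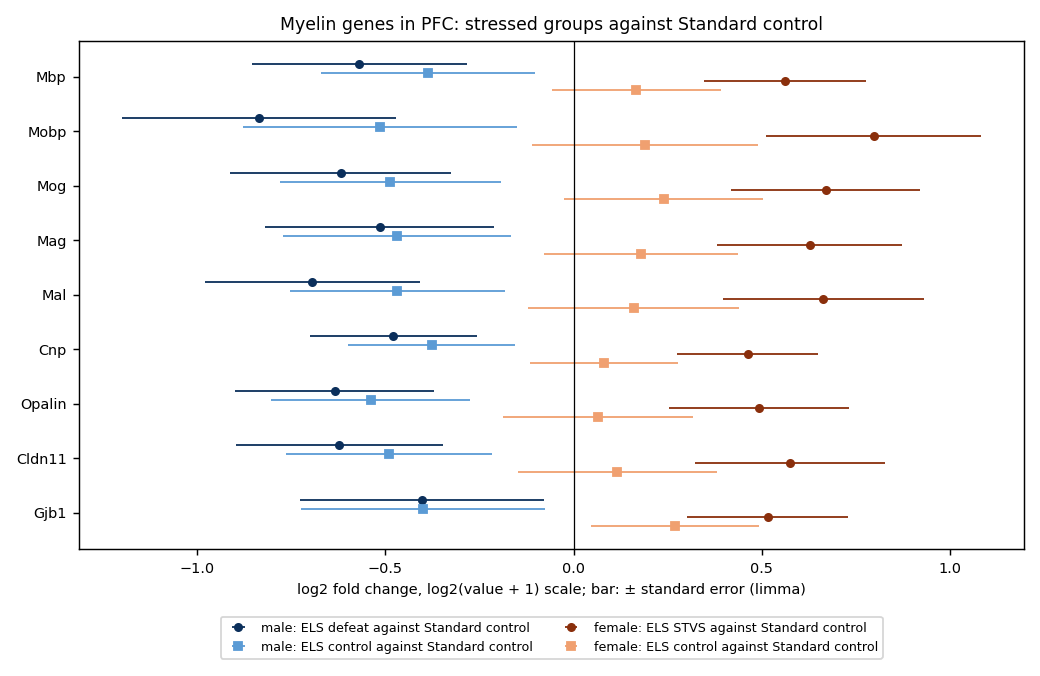
Log2 fold changes on the log2(value + 1) scale in PFC, with the standard error from limma as the bar, for groups with ELS against the Standard control of the same cohort. All 18 male points lie below 0 and all 18 female points above it, and the groups that also had the adult stress lie farther from 0 than ELS alone for each gene, by the least for male Gjb1 (-0.402 and -0.399).

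The difference between the cohorts was tested itself in 1 fit over all 46 PFC libraries. For ELS alone, the male effect minus the female effect had a median of -0.63, and none of the 9 passed an unadjusted p of 0.05 (background 1.88%, adjusted p = 1.00 by limma). Without the doubted libraries that median was -0.79, and 2 of the 9 had an unadjusted p under 0.05, as had 222 of 14000 genes in either direction. By edgeR with all libraries 1 of the 9 did, and 285 of 14000 genes. For ELS and adult stress together, a contrast chosen after the values had been seen, the median was -1.14, from -0.92 ± 0.40 for Gjb1 to -1.63 ± 0.47 for Mobp. All 9 had an unadjusted p under 0.05 on the lower side, where 6.29% of all genes did, and adjusted p from 0.19 to 0.35 by limma, so none was called; quantile normalisation called 2 of all genes, and 1 to 4 were called without some single libraries. Without the doubted libraries the median was -1.35. Leaving out any 1 library moved the median between -0.96 and -1.30.

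The 9 genes varied together among PFC libraries. After subtraction of group means from log2(value + 1), the 36 pairs of members had Pearson correlations of 0.90 to 0.99 over the 24 male libraries (median 0.97) and of 0.87 to 0.99 over the 22 female libraries (median 0.96). Points of a pair share library, depth and the scaling factor, and the values are a description. Opalin followed the other members least (0.94 in males and 0.91 in females), and Mog most in both cohorts (0.99 in each). In female VTA, where levels were high and the spread was small, the pairs ran from 0.55 (Mbp and Opalin) to 0.97.

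Genes whose levels were most like the members' mean, out of 13919 tested in both PFC sets, included Tmem88b, with a mean correlation of 0.98 over the 2 cohorts, and the transcription factor gene Myrf (listed as Gm98), with 0.97. The connexin gene Gjc3, the tetraspanin gene Tspan2, the receptor gene Gpr37, Prr18, Fa2h (the hydroxylase of myelin lipids), Evi2a and the protease gene Adamts4 followed, with 0.96 to 0.97. Sox10, which drives the oligodendrocyte program, had 0.92 in males and 0.90 in females, while Olig2, expressed throughout the lineage, had 0.64 in males and 0.28 in females. Pdgfra, the receptor that marks oligodendrocyte precursors, had 0.25 in males and -0.05 in females, and Gpr17, a gene of cells about to mature, had 0.45 in males and 0.0034 in females.

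Of 33 other myelin genes measured in both sets (36 listed), 30 had a correlation over 0.5 with the members in both cohorts, as had 6 of 11 oligodendrocyte transcription factor genes. None of 9 precursor genes, 18 genes of cholesterol synthesis, 12 astrocyte, 12 microglia, 12 endothelial, 12 pan-neuronal, 12 cortical excitatory, 9 striatal, 5 dopamine neuron, 5 blood or 2 choroid plexus genes did. Of 5 genes listed for hippocampal neurons 1 did, Prox1, with 0.70 in males and 0.84 in females. Which cells of the PFC express the genes of that list was not tested. The rest of that list mostly went the other way. Calb1 had -0.70 in males and -0.46 in females, Wfs1 -0.47 and -0.67, Fibcd1 -0.34 and -0.34, and Spink8 -0.62 and 0.23. The correlation of the members' mean with the mean of the striatal neuron list was -0.03 in males and 0.50 in females, and with the cortical excitatory neuron list -0.22 in males and 0.05 in females. With the mean of the dopamine neuron list it was 0.42 in males and 0.01 in females.

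In male PFC, ELS control against Standard control, 31 of the 33 other myelin genes tested were below 0 with a median of -0.32, and 5 had an unadjusted p under 0.05, against a median of 0.00 over all 14000 genes. The 4 with the smallest p were Qdpr at -0.25 ± 0.11, Pllp (plasmolipin, a tetraspan protein of myelin) at -0.36 ± 0.16, Aspa (aspartoacylase, which frees acetate for myelin lipids) at -0.52 ± 0.23 and Ppp1r14a at -0.57 ± 0.26. Precursor genes were below 0 in 4 of 9, genes of cholesterol synthesis in 8 of 18 and pan-neuronal genes in 6 of 12, with no gene of these 3 lists at an unadjusted p under 0.05. The striatal neuron list also stood lower: 10 of 10 tested genes were below 0 with a median of -0.38 and 2 had an unadjusted p under 0.05. Its sum was 7464 to 8567 normalised reads in ELS control and 7507 to 19728 in Standard control libraries, with Isl1 at 0 in some libraries, and its part in the myelin difference was not tested.

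In male PFC, ELS defeat against Standard control, 32 of 33 other myelin genes were below 0 with a median of -0.38, and 11 had an unadjusted p under 0.05. Markers of other cells stood higher in the same comparison: 5 of 5 blood genes, 6 of 12 endothelial, 7 of 12 microglia and 5 of 12 astrocyte genes were higher at an unadjusted p under 0.05, with medians of 1.36, 0.18, 0.16 and 0.11. Of all 14000 genes, 658 were higher by that mark. The blood list summed to 1547 to 20272 normalised reads in ELS defeat and 1097 to 1953 in Standard control libraries, and the endothelial list to 10743 to 14929 in ELS defeat and 9667 to 11653 in Standard control libraries. No gene of either list was at 0 in any male PFC library. Standard control 3 and 5, the libraries highest in the 9 genes, held the lowest 2 blood sums of their group (1097 and 1414). Over all 24 male PFC libraries, after subtraction of group means, the members' mean correlated at 0.29 with the blood list. It correlated at -0.15 with the endothelial, 0.02 with the microglia and 0.16 with the astrocyte list. The part of these markers in the myelin difference was not tested.

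In female PFC, ELS STVS against Standard control, 33 of 34 other myelin genes were above 0 with a median of 0.40, and 21 had an unadjusted p under 0.05. Among precursor genes 6 of 9 were below 0, with a median of -0.04. Striatal neuron genes were above 0 in 9 of 9, with a median of 0.12 and none at an unadjusted p under 0.05, and their sum was 7312 to 8666 normalised reads in ELS STVS and 6534 to 7415 in Standard control libraries. Endothelial genes were below 0 in 12 of 12 (median -0.11, 2 at an unadjusted p under 0.05) and blood genes in 5 of 5 (median -0.44, none), and the blood list summed to 492 to 1008 normalised reads in ELS STVS and 934 to 1138 in Standard control libraries. Of all 14000 genes, 344 were lower at an unadjusted p under 0.05. The part of these markers in the myelin difference was not tested.

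In male HIP Mbp is given by Ttr as well as by group, since the Ttr-rich libraries were spread unevenly over the groups. Mbp had 26748, 46395 and 56062 normalised reads in the 6 libraries with over 10000 reads of Ttr, against 12390, 21694 and 55819 in the other 18. Of those 6 libraries, 2 were ELS defeat, 1 ELS control, none Standard defeat and 3 Standard control. The choroid plexus list summed to 2169 to 271308 normalised reads in ELS defeat, 2373 to 33018 in ELS control, 2372 to 4337 in Standard defeat and 2486 to 432883 in Standard control libraries. No gene of that list was at 0 in every library. The striatal neuron list summed to 4828 to 59661 normalised reads in male HIP, with a median of 5878. After subtraction of group means, the members' mean correlated at 0.63 with the choroid plexus list and 0.41 with the striatal neuron list. It correlated at 0.53 with the pan-neuronal list, -0.55 with the hippocampal neuron list and -0.49 with the astrocyte list. The part of these markers in the myelin levels was not tested.

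**Figure D5:**
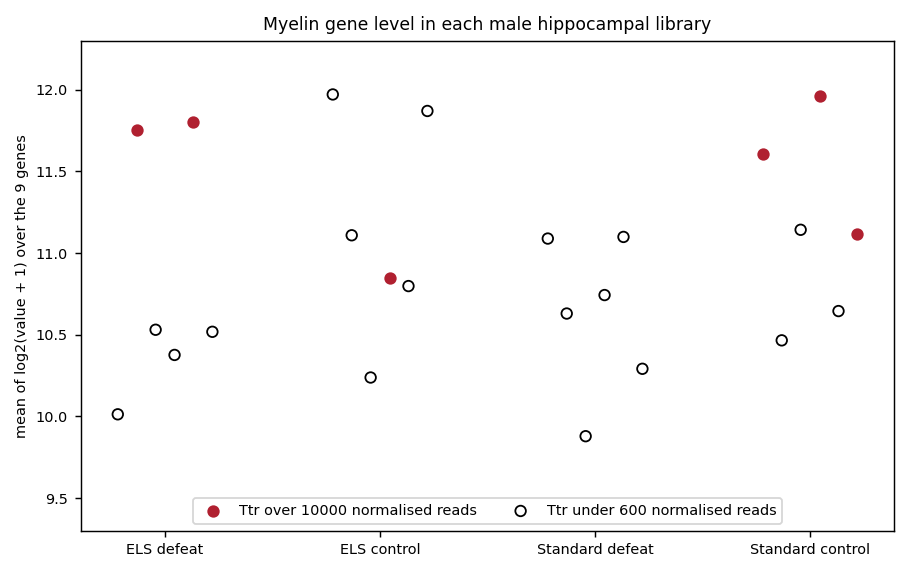
The mean of log2(value + 1) over the 9 genes in each male HIP library, with the libraries above 10000 normalised reads of Ttr filled. In the ELS defeat group the 2 filled points are the highest, and in the Standard control group 2 of the 3 filled points are. In the ELS control group 2 open points are the highest, the top one at 11.97, and the Standard defeat group has no filled point.

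With all libraries, Standard defeat against Standard control had a median of -0.57 over the 9 genes (0 of 9 at an unadjusted p under 0.05, background 14.4%), and -0.12 without the Ttr-rich libraries. ELS defeat against ELS control had one of -0.28 (0 of 9, background 7.88%), and -0.84 without them, with 8 of 9 at an unadjusted p under 0.05, as had 921 of 14000 genes in either direction in that fit. ELS control against Standard control had one of -0.02 (0 of 9, background 6.46%), and 0.45 without them. In all 3, limma called none of the 9 and no gene of 14000 with or without those libraries, and edgeR called none with all libraries.

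In VTA and NAc the medians of the members lay within 0.15 of 0 in each stress comparison with all libraries, and limma called no gene in any of them (0%), nor did edgeR on whole reads outside the male VTA, where no reads could be recovered. In male VTA the medians were -0.01 for ELS control against Standard control (background at an unadjusted p under 0.05: 2.03%), 0.07 for Standard defeat against Standard control (6.56%) and -0.08 for ELS defeat against ELS control. In the last, Mal was lower at -0.22 ± 0.10, the 1 of 9 with an unadjusted p under 0.05, where 1.92% of all genes were lower by that mark (adjusted p = 0.97 by limma). Mal had 144, 186 and 208 RPKM in ELS defeat against 181, 219 and 229 in ELS control libraries. In female VTA the medians were -0.07 for ELS control (4.22%), 0.04 for Standard STVS (4.44%) and -0.07 for ELS STVS against ELS control (1.34%), with 0 of 9 at an unadjusted p under 0.05 in each. Without the doubted libraries that for Standard STVS was -0.02, with 6 of 9 below 0.

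In female NAc the medians were 0.05 for ELS control against Standard control (11.2%), 0.01 for Standard STVS against Standard control (6.16%) and -0.12 for ELS STVS against ELS control (2.2%), with 0 of 9 at an unadjusted p under 0.05 in each. Without the 10 libraries whose adult condition label repeats the sex, which were grouped by title, the last was 0.13 and ELS control against Standard control was 0.19, each with 0 of 9 below 0. Without the doubted libraries Standard STVS against Standard control was -0.02 and ELS STVS against ELS control -0.16. In male NAc, over 8 genes, the medians were -0.05 for ELS on days 10 to 20 (6.77%) and 0.00 for ELS on days 2 to 12 (3.46%), each control against Standard control, and -0.08 for Standard defeat (3.39%). Defeat against control had medians of -0.11 after ELS on days 10 to 20 and -0.14 after ELS on days 2 to 12 (7.71%). After days 10 to 20 Mobp was lower at -0.22 ± 0.09, the 1 of 8 with an unadjusted p under 0.05 (background on the lower side 5.11%, adjusted p = 0.58 by limma). The median was -0.09 without ELS defeat 4, the library with choroid plexus markers, with 1 of 8 at an unadjusted p under 0.05. It was -0.07 without ELS control 4 and -0.08 without ELS defeat 6, with none of the 8. The part of those markers in the difference was not tested.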

How the data were processed

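RNA-seq values of 163 libraries in 3 tables were used as deposited, and the 16 ChIP and input samples were not analysed here. Kits were poly-A selected and unstranded, per the labels' protocols, so a gene and an antisense partner cannot be told apart. For the male VTA samples the submitters' processing notes list MACS2 2.1.1, SAMtools 0.1.19, Bowtie2 2.2.0, TopHat 2 and HTSeq, and the builds mm10 and mm9. For the others they list HISAT, HTSeq and mm10. Which tool made the scaling factors is not given here. Values of all sets but male VTA are a normalised signal deposited by the authors. Each library's gene counts had been divided by its own single factor, from which whole reads were recovered (100% of positive values within 0.001). Male VTA values are RPKM, deposited by the authors, with no depth; 181 rows held no value. The 3 tables were normalised separately and are not compared with each other.

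Each set (sex and region) was tested on log2(value + 1) with limma 3.58.1 (R 4.3.3) across the 14000 genes of highest mean (in male VTA, the 14586 with a mean of at least 0.5 RPKM), with Benjamini-Hochberg adjustment over all of them. This scale understates changes of low genes. edgeR 4.0.16 on the recovered reads was an alternative, since the deposited values are not counts. The code was tested on simulated data. Summaries used Python 3.11.15, pandas 2.3.3, numpy 2.4.6 and scipy 1.17.1. Promoters are from the RefSeq table of GRCm38.p6. Whether punches of several regions came from 1 mouse is not in the labels, and region tests treat libraries as separate.

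The members and lists were chosen with earlier results of these data known. Named genes are the 9 members, at most 4 other myelin genes with the smallest p in male PFC ELS control against Standard control, and the 10 genes most like the members' mean, of which 1 is not reported here; hippocampal, transcription factor and precursor genes named beside their lists, and libraries singled out, were chosen after their values were seen. Of 186 list symbols, 184 were found, 5 under an older name. Same-numbered libraries were not paired by the labels. Alternatives were no filter, quantile normalisation, a pseudocount of 0.1, edgeR, a replicate block, leaving out each library, and leaving out doubted libraries.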

Additional observations from a re-analysis of the deposited data

Results flagged for a closer look

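Of 60 checks for a library far from the others of its group, 3 exceeded Dixon's limit, and chance gives about 1 in 20. The male NAc library ELS P10-20 defeat 1 had a log2 Gjb1 to Opalin ratio of -1.26, against -0.98 to -0.84 in the other libraries of its group. The male HIP library ELS defeat 3 had a ratio of -0.47, against -0.81 to -0.70 in the others. The female NAc library Standard control 2 had a mean log2(value + 1) over the 9 genes of 12.66, against 12.16 to 12.33 in the others.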

How the results depend on the processing

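No stress comparison called any of the 9 genes at an adjusted p under 0.05 under any alternative run. Same-numbered libraries of different groups correlated weakly, but more than other pairs. Their median was 0.07 in male PFC, against -0.01 in other pairs, and 0.12 in female PFC, against -0.03. In male PFC 14 of 36 same-numbered pairs correlated over 0.1, and in female PFC 17 of 31 did. What the numbers stand for is not in the labels, so the main fits hold no block. With the replicate block the male PFC median of ELS defeat against Standard control stayed at -0.62 with 4 rather than 6 genes at an unadjusted p under 0.05, and the female PFC median of ELS control against Standard control was 0.25. The median of ELS STVS against ELS control in female NAc was 0.13 without the libraries whose adult label repeats the sex, and that of VTA against NAc was 1.35 under quantile normalisation; the cause was not tested in either. Leaving out 1 library, the medians ran from -0.61 to -0.28 for ELS control and from -0.74 to -0.43 for ELS defeat against Standard control in male PFC, and from 0.39 to 0.74 for ELS STVS in female PFC. Opalin in female PFC ELS control against Standard control ran from -0.029 without ELS control 5 to 0.22 without ELS control 4. Over all genes, 35 were called in male PFC ELS defeat against ELS control without ELS control 1. Gjb1 and Opalin were the members with the fewest reads in PFC, and the part of depth in their values was not tested.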
